A study of Mus musculus with 10 samples.

Results

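The 9 genes described here encode parts of the transcriptional response to cyclic AMP. They are the salt-inducible kinases Sik1, Sik2 and Sik3, the CREB coactivators Crtc2 and Crtc3, the CREB-related factor Crem, and the orphan nuclear receptors Nr4a1, Nr4a2 and Nr4a3. They were taken by symbol from a table of 18025 genes. All 9 passed the filter on low counts, as did 12697 genes in all. The set was put together with the difference between COPD and control in view, so the differences of its members between these groups are given as a description, without a test. The libraries came from gastrocnemius, a fast-twitch calf muscle, of C57BL/6 mice of wild-type genotype, all listed as 8 weeks old. 5 libraries were labelled control, and 5 were labelled COPD (chronic obstructive pulmonary disease), which the title of the series gives as a model induced by cigarette smoke. The labels give no sex, hour of collection, length of exposure or pooling, and do not say that each library came from its own animal, so that p-values reflect only the spread among these 10 libraries.

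As background, hormones and nerves that raise cyclic AMP activate protein kinase A, which phosphorylates CREB and restrains the salt-inducible kinases. When these kinases are active they phosphorylate the CRTC coactivators and class IIa histone deacetylases, which then stay out of the nucleus; when they are restrained, CRTC proteins enter the nucleus and bind CREB. Sik1, Crem and the Nr4a genes are themselves known targets of CREB, whereas Sik2 and Sik3 are expressed more steadily. In skeletal muscle the Nr4a genes are known to be induced by adrenergic signals and by exercise, and several of these genes follow the hour of day.

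The promoters of the 3 Nr4a genes are shown because these genes share the short CREB-binding core TGACG. Promoter windows of 300 bases, from 250 before to 50 after the start of transcription, were taken from RefSeq (GRCm38.p6) for 6 of the 9 members: Sik2, Sik3, Crtc3, Nr4a1, Nr4a2 and Nr4a3. No window was read for Sik1, Crtc2 or Crem, so their sites were not compared. The sequences run 5′ to 3′ on the strand of the gene, and capitals mark TGACG or its reverse complement CGTCA. The windows lie at chr15:101266596-101266895 (plus strand) for Nr4a1, chr2:57123954-57124253 (minus strand) for Nr4a2 and chr4:48045055-48045354 (plus strand) for Nr4a3.
Nr4a1: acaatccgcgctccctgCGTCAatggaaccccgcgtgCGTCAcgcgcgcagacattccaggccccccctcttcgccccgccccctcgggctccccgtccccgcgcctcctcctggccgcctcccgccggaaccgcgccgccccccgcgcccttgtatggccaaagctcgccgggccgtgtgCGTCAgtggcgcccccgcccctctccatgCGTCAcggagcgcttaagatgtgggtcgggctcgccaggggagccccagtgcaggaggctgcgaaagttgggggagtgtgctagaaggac
Nr4a2: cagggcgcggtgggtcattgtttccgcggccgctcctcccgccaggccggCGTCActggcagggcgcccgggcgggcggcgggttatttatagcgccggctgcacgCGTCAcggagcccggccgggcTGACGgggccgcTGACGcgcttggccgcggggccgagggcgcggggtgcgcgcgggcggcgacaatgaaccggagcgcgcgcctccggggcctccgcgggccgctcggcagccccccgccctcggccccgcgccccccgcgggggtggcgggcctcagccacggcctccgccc
Nr4a3: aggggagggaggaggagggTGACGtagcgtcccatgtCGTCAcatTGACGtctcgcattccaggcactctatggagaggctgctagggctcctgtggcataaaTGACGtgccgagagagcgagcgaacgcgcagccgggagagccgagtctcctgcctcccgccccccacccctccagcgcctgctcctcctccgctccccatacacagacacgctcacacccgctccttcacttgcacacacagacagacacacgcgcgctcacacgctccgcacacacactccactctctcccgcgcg
Each Nr4a window held 4 matches to the core on both strands counted together. At least 1 match was found in 20.8% of the 32851 windows of this length in the table, and at least 4 in 0.231%; the count of 4 was chosen after the Nr4a windows had been read. The Sik3 window held 3 matches and the Sik2 window 2, and none was found in the Crtc3 window. The full palindrome TGACGTCA, which contains the core, was found in none of the 6 windows (1.79% of all windows). The NR4A-binding element AAAGGTCA was also in none (1.51% of all windows). The E-box CACGTG, a site of clock factors, was in the Sik3 window alone of the 6 (7.15% of all windows). These matches describe letters and do not show binding.

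Before the members are compared, 4 features of the libraries matter. Totals ran from 14085854 to 17251034 expected counts. Muscle fibre markers summed to between 152357 and 222284 CPM (counts scaled to equal library totals) in every library, as the tissue label states. COPD replicate 5 stood apart from the other COPD libraries on the first principal component of all genes, at -21.9 against 11.4 to 38.0, and lay within the control range of -23.9 to -10.04. Transcripts of 3 Y-linked genes summed to between 1118 and 1973 counts in the 5 controls and in COPD replicates 2 and 3, and to 3 or 4 counts in COPD replicates 1, 4 and 5. Results are therefore also given with COPD replicate 5 left out, and for the 7 libraries in which Y-linked transcripts were present. Those 7 hold COPD replicates 2 and 3 alone of the COPD group. COPD replicate 5 was singled out because it lay among the controls, so larger differences without it follow in part from that choice.

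Levels of the members can be ordered in TPM, which is scaled per transcript length. In control muscle Nr4a1 was the most abundant, at 197 ± 81.5 TPM (SD, n = 5), and its lowest library lay above every other member. Crtc2 (20.7 ± 2.59 TPM) and Nr4a3 (19.4 ± 9.34 TPM) came next and overlapped each other. Sik3 (13.0 ± 1.62 TPM) overlapped the wide range of Nr4a3 but not that of Sik1 (8.63 ± 1.43 TPM). Crem (6.10 ± 0.589 TPM), Crtc3 (5.93 ± 0.539 TPM) and Sik2 (4.92 ± 1.20 TPM) lay below, each overlapping the next, and the lowest Sik1 library lay within the range of Crem. Nr4a2 was the lowest, at 0.926 ± 0.289 TPM, below every library of Sik2. In COPD the means of 2 members moved up the order. Nr4a3 (33.6 ± 13.4 TPM) came second and Sik1 (26.6 ± 11.5 TPM) came after it, both ahead of Crtc2 (19.3 ± 2.91 TPM), and the ranges of the 3 overlapped. Sik1 was above the Crtc2 range in COPD replicates 1 to 4, and in COPD replicate 5, at 8.43 TPM, it was below every Crtc2 and Sik3 library. Crem lay wholly above Crtc3 in COPD, and the range of Nr4a2 reached into that of Sik2.

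Sik1 had the largest difference of the kinase genes. It encodes the inducible member of the family, which phosphorylates the CRTC proteins. In controls it was at 16.9, 26.1, 22.7, 22.9 and 21.6 CPM (scaled by TMM, replicates 1 to 5), and in COPD at 122, 86.0, 97.0, 69.1 and 23.4 CPM. COPD replicates 1 to 4 all lay above the highest control, and COPD replicate 5 lay inside the control range; at least 4 COPD libraries lay above every control for 6.84% of all genes tested. The difference was a log2 fold change of 1.85 ± 0.33 (SE), from 22.0 ± 3.33 to 79.5 ± 36.7 CPM (SD, n = 5 each). With COPD replicate 5 left out it was 2.09 ± 0.17, and in the 7 libraries that had Y-linked transcripts 2.06 ± 0.15.

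Sik2 and Sik3, the kinases that are expressed more steadily, overlapped between the groups. Sik2 was at 21.6, 16.8, 19.4, 15.7 and 26.9 CPM in controls and at 14.3, 24.0, 25.8, 24.0 and 17.0 CPM in COPD (log2 fold change 0.07 ± 0.19). In the GRCm38 annotation exons of Sik2 overlap those of Ppp2r1b, which lies on the other strand, and the strand setting of the counting is not stated, so its value is uncertain to that extent. Sik3 was at 48.6, 47.6, 44.1, 38.4 and 47.7 CPM in controls and at 36.8, 51.9, 48.1, 52.2 and 68.3 CPM in COPD (0.19 ± 0.14, and 0.06 ± 0.12 without COPD replicate 5). Its highest library was COPD replicate 5, the one in which Sik1 was at the control level. Relative to Sik2 and Sik3, Sik1 made up 25.7% to 37.6% of the summed SIK TPM in the controls, 56.9% to 77.2% in COPD replicates 1 to 4 and 28.0% in COPD replicate 5.

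**Figure D1:**
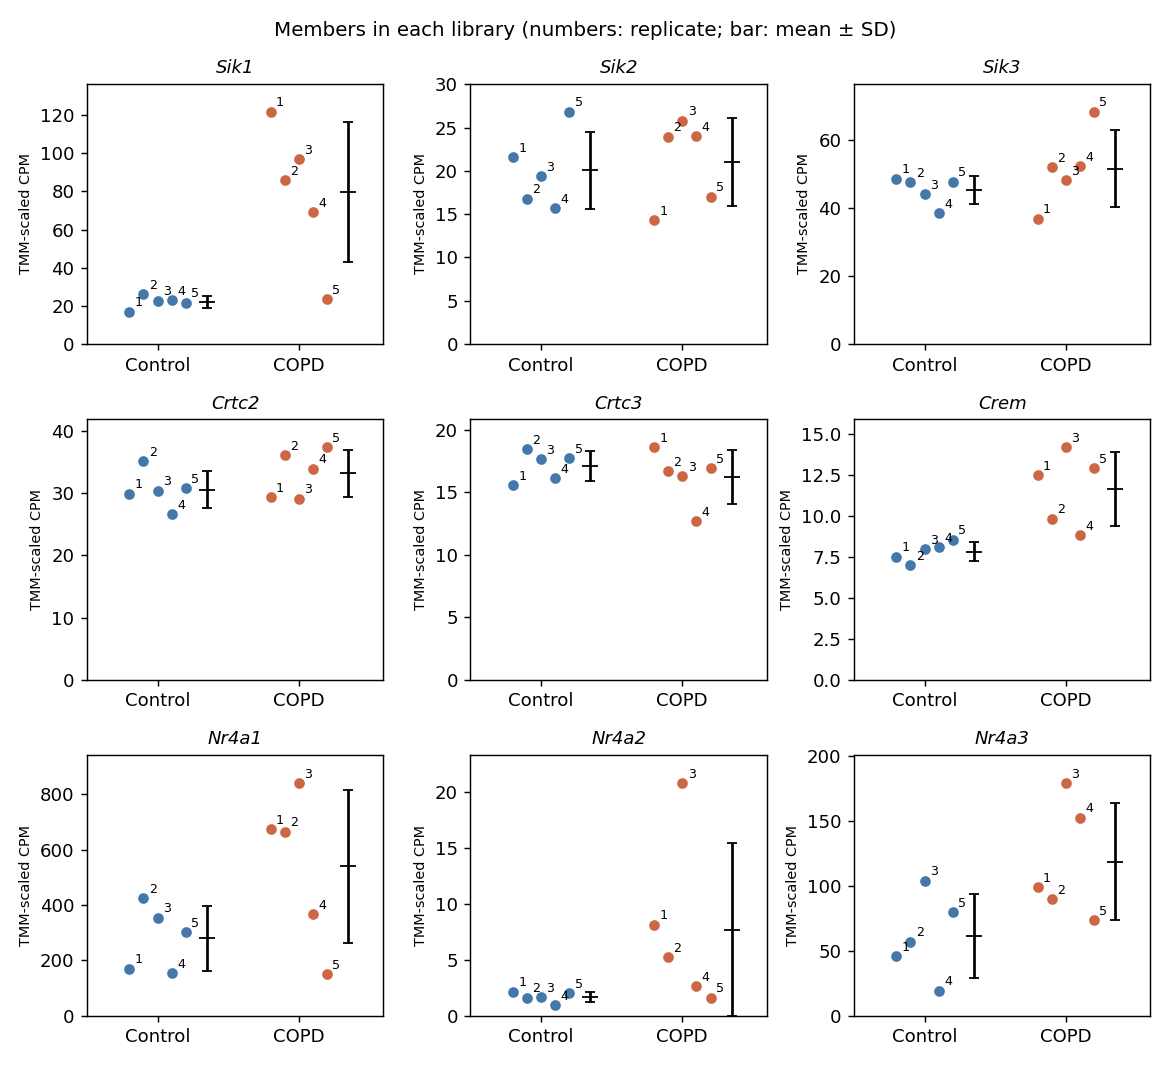
Level of each of the 9 members in TMM-scaled CPM (vertical axes, linear, from 0) in the 5 control and 5 COPD libraries. Points are libraries with their replicate number and bars are the mean ± SD (cut at 0 for Nr4a2); Sik1 in COPD replicate 5 lies at 23.4 CPM, among the controls, while Crem in all 5 COPD libraries lies above the highest control.

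The coactivator genes lay at like levels in the 2 groups. Crtc2, which carries the cyclic AMP signal to CREB in several tissues, was at 29.9, 35.1, 30.4, 26.6 and 30.8 CPM in controls and at 29.3, 36.1, 29.1, 33.9 and 37.3 CPM in COPD (log2 fold change 0.12 ± 0.11). Crtc3, a related coactivator, was at 15.6, 18.5, 17.7, 16.1 and 17.7 CPM in controls and at 18.6, 16.7, 16.3, 12.7 and 17.0 CPM in COPD (-0.07 ± 0.11). The groups overlapped for both genes on this scale. In TPM, however, Crtc3 was at 5.44 to 6.54 in controls and at 4.01 to 5.40 in COPD, without overlap; COPD lay wholly below control in the same way for 5.62% of the 11166 genes tested in TPM. The median of all genes in that unit was -0.18 on the log2 scale, and relative to it the log2(TPM + 1) difference of Crtc3 was -0.06. The third family gene, Crtc1, is no member; it had a log2 fold change of 0.12 ± 0.13 and made up 18.6 ± 1.97% of the summed CRTC TPM in controls and 19.2 ± 3.18% in COPD (SD, n = 5 each).

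Crem was the member whose groups did not overlap in TMM-scaled CPM. The gene encodes both activators and, from an internal promoter, the inducible repressor ICER, which counts per gene cannot tell apart. In the GRCm38 annotation its exons overlap those of Gm6225 on the other strand, which was not among the genes tested. The counts of Crem are uncertain to that extent, as those of Sik2 are. In controls it was at 7.51, 6.98, 7.98, 8.10 and 8.56 CPM, and in COPD at 12.5, 9.84, 14.2, 8.82 and 12.9 CPM. All 5 COPD libraries lay above all 5 controls, COPD replicate 5 with the second highest value; groups failed to overlap for 2.84% of all genes tested and did so with COPD higher for 1.29%. The log2 fold change was 0.57 ± 0.14 (SE), 0.53 ± 0.15 with COPD replicate 5 left out and 0.63 ± 0.17 in the 7 libraries that had Y-linked transcripts. In TPM the groups overlapped, since COPD replicates 2 and 4 (6.14 and 6.25 TPM) lay below the highest control (7.02 TPM). Scaled by library totals alone, without TMM, the groups also overlapped. Control replicate 4 held 146 of 15893900 expected counts and COPD replicate 4 held 130 of 15385917. The log2 fold change with library size as the only scaling was 0.42 ± 0.15.

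The Nr4a receptors were higher on average in COPD, with a wide spread in both groups. Nr4a1 (Nur77) was at 169, 425, 353, 153 and 301 CPM in controls and at 674, 664, 840, 367 and 149.8 CPM in COPD. COPD replicates 1 to 3 lay above every control, replicate 4 inside their range and replicate 5 below it. Its log2 fold change was 0.94 ± 0.41, and 1.18 ± 0.32 without COPD replicate 5. Nr4a3 (NOR-1) was at 46.0, 57.0, 104, 19.4 and 79.6 CPM in controls and at 98.9, 89.9, 179, 152.6 and 73.6 CPM in COPD (0.96 ± 0.38). Only COPD replicates 3 and 4 lay above the highest control, and the controls themselves spanned a 5.37-fold range.

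Nr4a2 (Nurr1), by far the least abundant, had the largest fold change of the 9. It was at 2.14, 1.60, 1.66, 0.943 and 1.99 CPM in controls and at 8.12, 5.25, 20.8, 2.65 and 1.59 CPM in COPD. These rest on 17.0 to 37.5 expected counts per control library and 26.3 to 283 per COPD library, so that counting error is not small in the lowest libraries. The COPD libraries also differed widely among themselves, with a mean of 7.68 and an SD of 7.76 CPM. COPD replicates 1 to 4 lay above every control and replicate 5 within their range. The log2 fold change of 2.19 ± 0.59 was 1.40 ± 0.42 without COPD replicate 3, 2.46 ± 0.50 without COPD replicate 5 and 2.97 ± 0.44 in the 7 libraries that had Y-linked transcripts. In TPM, Nr4a1 made up 80.9% to 94.1% of the summed family level in every library and Nr4a2 at most 1.67%.

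**Figure D2:**
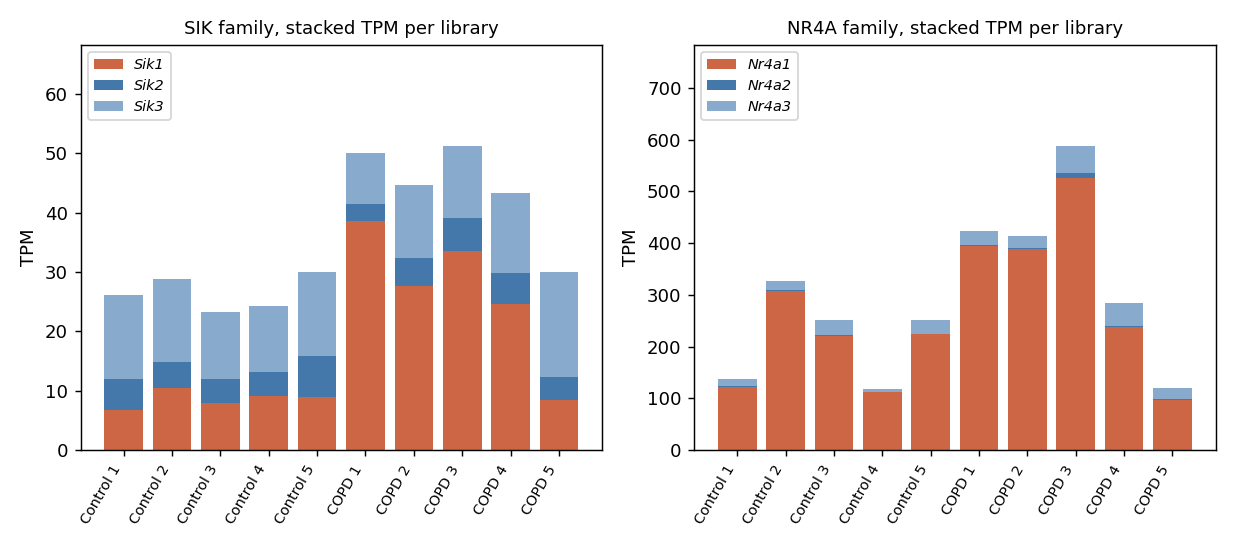
Stacked TPM of the 3 SIK genes (left) and the 3 NR4A genes (right) in each library; vertical axes are linear from 0. The summed SIK level was 43.3 to 51.2 TPM in COPD replicates 1 to 4 and 23.2 to 30.1 TPM in the controls and COPD replicate 5, and Nr4a1 makes up most of each NR4A bar.

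Read across the members, 8 of the 9 had a positive log2 fold change. Their median was 0.57, against -0.01 over all genes tested. None of the 9 passed an adjusted p of 0.05 by edgeR (quasi-likelihood test, Benjamini-Hochberg over all genes), as 0.063% of genes did. At an unadjusted p under 0.05 there were 5 (Sik1, Crem, Nr4a1, Nr4a2 and Nr4a3), against 14.6% of all genes. DESeq2 on the same genes listed Sik1, Crem and Nr4a2, where it listed 3.19% of genes, and edgeR without the low-count filter listed Sik1 (0.0948% of genes). With COPD replicate 5 left out, edgeR listed Sik1 and Nr4a2 (3.21% of genes), and in the 7 libraries that had Y-linked transcripts it listed the same 2 members (3.7% of genes). Because the set was chosen on this contrast, these counts support nothing further. The values of Sik2 and Crtc2 were below 0 with library size as the only scaling, and those of Sik2, Sik3 and Crtc2 on log2(TPM + 1), where relative to the median of all genes they were 0.06, 0.14 and 0.08. Leaving out 1 library took Sik2 below 0 (-0.0104 without control replicate 4 and -0.00576 without COPD replicate 3) and Crtc3 above it (0.00391 without COPD replicate 4). Those of Sik1, Crem and the 3 Nr4a genes were above 0 in all 20 alternatives run.

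**Figure D3:**
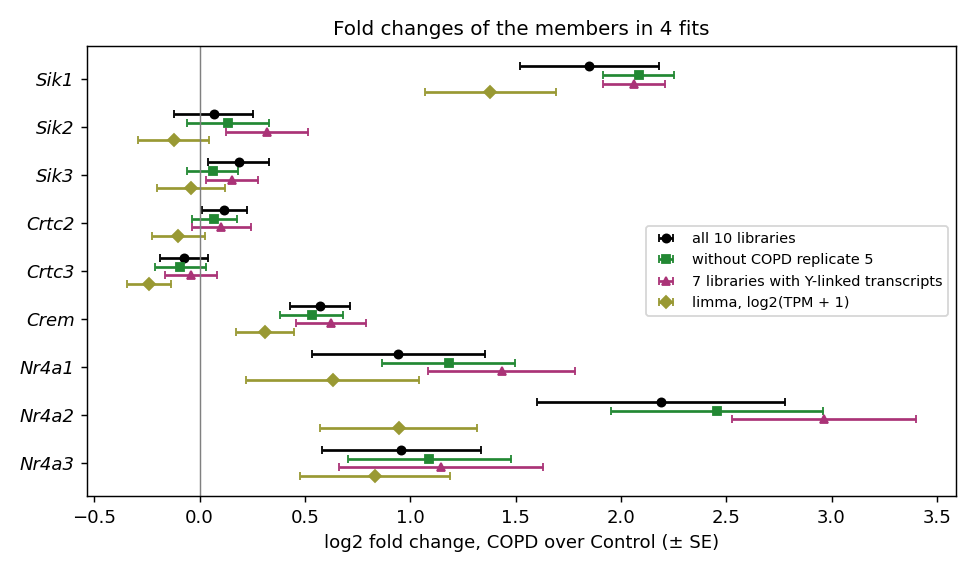
Log2 fold change of COPD over control (horizontal axis, ± SE) for the 9 members in 4 fits: edgeR on all 10 libraries, edgeR without COPD replicate 5, edgeR on the 7 libraries with Y-linked transcripts, and limma on log2(TPM + 1). Sik1, Crem and the Nr4a genes lie above 0 in all 4, and the values of Sik2, Sik3, Crtc2 and Crtc3 lie between -0.24 and 0.32.

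The genes whose levels followed those of the variable members most closely were sought among 9036 genes with a mean of at least 5 CPM, by the root mean square difference in log2 CPM after centring on the 10 libraries. Nearest to Sik1 were Arl4d, a small GTPase gene (0.30 log2 units), Arrdc2, an arrestin-domain gene (0.33), and Cebpb, a bZIP transcription factor gene (0.34). All 3 were high in COPD replicates 1 to 4, and in COPD replicate 5 each lay inside its control range. Cebpb was at 49.6 to 67.3 CPM in controls and 54.4 CPM there. Nearest to Nr4a2 were Pdxk, which encodes pyridoxal kinase (0.35), Fosl2, a subunit of AP-1 (0.45), and Irs2, an insulin receptor adaptor (0.48). Each had its highest value in COPD replicate 3, as Nr4a2 did; Pdxk reached 118 CPM there and 7.32 to 31.9 CPM in the other 9 libraries. Nearest to Nr4a1 were Nkain1 (0.39), Tmem140 (0.39) and Klhl38 (0.42), and nearest to Nr4a3 were Midn (0.34), Magix (0.36) and Gpr157 (0.44). These distances over 10 libraries are descriptions, and all of them contain the difference between the groups.

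**Figure D4:**
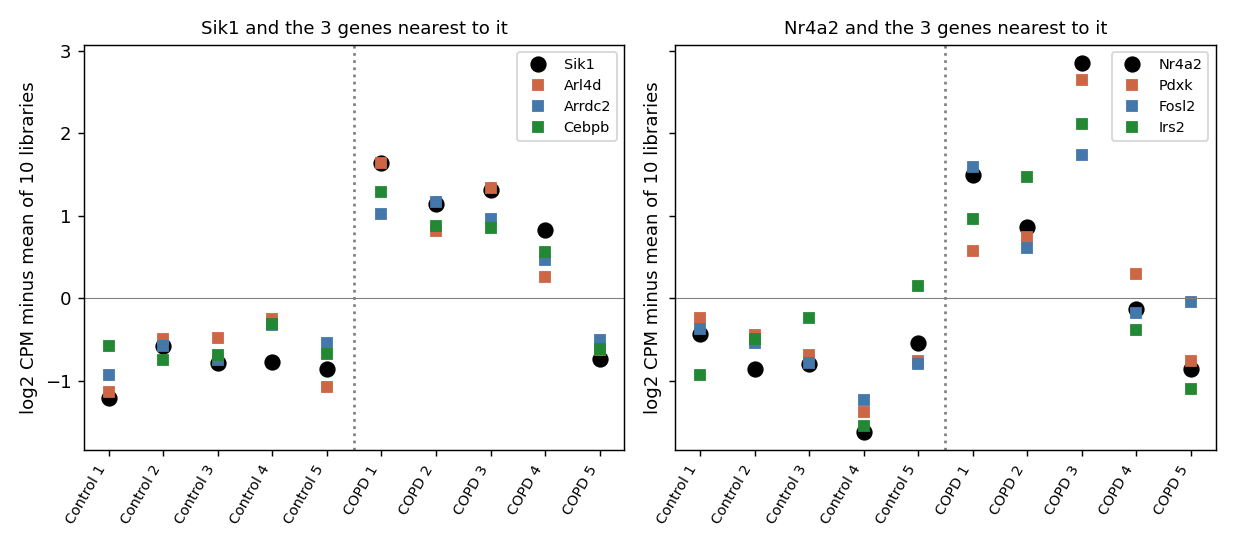
Log2 CPM minus the mean of the 10 libraries (vertical axis) for Sik1 (left) and Nr4a2 (right) as black circles, with the 3 genes nearest to each as coloured squares; libraries are on the horizontal axis and the dotted line parts control from COPD. The genes near Sik1 are high in COPD replicates 1 to 4 and near the controls in COPD replicate 5, and those near Nr4a2 are highest in COPD replicate 3.

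Upstream of the members, genes that make, break down or sense cyclic AMP showed 0 calls among 34 tested of 40 listed (edgeR, adjusted p of 0.05; with an unadjusted p under 0.05, 3 were higher and 1 lower). The list had a median log2 fold change of 0.11, which was -0.04 with library size as the only scaling. This list and those below were chosen with earlier results of these data known, so their counts are descriptions. Shares over all genes are given as the background. At an unadjusted p under 0.05 (edgeR), 1008 of 12697 genes were higher and 843 lower. DESeq2 called 3.19% of genes and edgeR without COPD replicate 5 called 3.21%. Groups did not overlap for 2.84%. The smallest p belonged to phosphodiesterases that degrade cyclic AMP. Pde4a averaged 51.6 ± 6.00 CPM in control against 84.1 ± 23.6 CPM in COPD (SD, n = 5 each), and its log2 fold change was 0.71 ± 0.19 (adjusted p = 0.135). Pde4d averaged 256 ± 18.8 against 327 ± 33.1 CPM (0.35 ± 0.10, adjusted p = 0.154). Pde4a was at 44.7 CPM in COPD replicate 5, inside the control range of 43.3 to 58.8 CPM. It passed by edgeR with that library left out (0.87 ± 0.11, adjusted p = 0.00493), as 3.21% of all genes did. It also passed in the 7 libraries with Y-linked transcripts, as 3.7% of genes did. Those 7 do not include COPD replicate 5 either, so the fits are not separate support. The anchoring protein gene Akap12 had a log2 fold change of 1.05 ± 0.32 and the cyclase gene Adcy2 one of -0.44 ± 0.18. DESeq2 called Pde4a, Pde4d and Akap12.

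CREB itself and its partners showed 0 calls among 10 tested of 11 (edgeR; 1 at an unadjusted p under 0.05, and 0 by DESeq2), with a median log2 fold change of -0.08. That median was -0.17 without COPD replicate 5, -0.15 without control replicate 4, -0.05 without either control replicate 5 or COPD replicate 3, and -0.24 with library size as the only scaling. Creb1 averaged 14.1 ± 0.753 CPM in control against 13.8 ± 3.33 CPM in COPD (SD, n = 5 each). The smallest p belonged to the acetyltransferase gene Crebbp (0.35 ± 0.13, adjusted p = 0.239), followed by Creb5 (-0.41 ± 0.19), the related acetyltransferase gene Ep300 (-0.27 ± 0.13) and Atf2 (-0.17 ± 0.11).

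Regulators and substrates of the SIK kinases showed 0 calls among 24 (edgeR; with an unadjusted p under 0.05, 3 were higher and 2 lower). The class IIa histone deacetylase genes, whose products the kinases phosphorylate, differed in sign: Hdac4 was the positive one of 4, and Hdac5, Hdac7 and Hdac9 were below 0. Hdac4 averaged 32.8 ± 3.83 CPM in control against 48.7 ± 8.91 CPM in COPD (SD, n = 5 each), and its log2 fold change was 0.57 ± 0.14 (adjusted p = 0.0974). Hdac5 was at 84.9 ± 8.38 and 64.7 ± 4.96 CPM, without overlap (-0.39 ± 0.10, adjusted p = 0.105). Hdac7 had a log2 fold change of -0.33 ± 0.17 and Hdac9 one of -0.37 ± 0.28, and their groups overlapped. Mef2c, the muscle transcription factor gene whose product these deacetylases repress, was at 301 ± 25.1 and 384 ± 21.1 CPM, also without overlap (0.35 ± 0.09, adjusted p = 0.129). DESeq2 called these 3 genes. Ywhaz, which encodes a phosphoserine-binding adaptor, had a log2 fold change of 0.26 ± 0.11. Among other kinases related to AMPK, edgeR called 0 of 10 tested of 12 listed (3 at an unadjusted p under 0.05), with Snrk at 0.38 ± 0.11 and Prkaa2, a catalytic subunit gene of AMPK, at -0.32 ± 0.10; DESeq2 called Snrk.

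Downstream, known targets of CREB had 0 calls among 20 tested of 25 (edgeR; with an unadjusted p under 0.05, 11 were higher and 0 lower, and DESeq2 called 6 higher), with a median log2 fold change of 0.71. Of the 20 tested, 15 had a positive log2 fold change. Over all genes 14.6% had an unadjusted p under 0.05 by edgeR, and DESeq2 called 3.19%. The smallest p belonged to Fosb (2.72 ± 0.51, adjusted p = 0.0651), Cebpb (1.30 ± 0.26, adjusted p = 0.0795), Dusp1 (0.88 ± 0.19) and Junb (2.39 ± 0.50). Without COPD replicate 5, 8 were called higher (Fosb, Cebpb, Dusp1, Junb, Per1, Nfil3, Btg2 and Irs2) and 1 lower (Per2, a clock repressor). The mean of the list, centred on the 10 libraries, was 0.20 to 0.78 log2 CPM in COPD replicates 1 to 4, -0.09 in COPD replicate 5 and -0.71 to -0.06 in controls. Of its 25 genes 7 are also immediate early genes, 28.0% of this list and 30.4% of that one, so the 2 lists are not independent. It also shares 3 genes with the clock list (12.0% and 16.7%) and 3 with the glucocorticoid list (12.0% and 15.8%). Of the CREB targets named here, all but Irs2 are also on the immediate early, clock or glucocorticoid list.

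Genes of glycolysis and fuel use that have been tied to NR4A receptors in muscle had 0 calls among 14 (edgeR; 8 higher at an unadjusted p under 0.05). All 14 log2 fold changes were positive (median 0.35), and 11 of the 14 were so when libraries were scaled by size alone and 10 on log2(TPM + 1). The enolase gene Eno3 averaged 4278 ± 672 CPM in control against 6159 ± 539 CPM in COPD, without overlap (SD, n = 5 each), and its log2 fold change was 0.53 ± 0.13 (adjusted p = 0.105). Pgam2, the muscle phosphoglycerate mutase gene, was at 2294 ± 518 and 3699 ± 644 CPM (0.69 ± 0.17, adjusted p = 0.107), and the mitochondrial carrier gene Ucp3 at 116 ± 75.6 and 401 ± 219 CPM (1.79 ± 0.57). DESeq2 called Eno3 and Pgam2, and edgeR without COPD replicate 5 called Pgam2 and Ucp3.

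Lists of 3 other programs tied to these genes were read in the same libraries, and their part in the differences of Sik1, Crem and the Nr4a genes was not tested. Circadian clock genes numbered 18, of which 7 had a positive log2 fold change (median -0.30). By edgeR 1 of the 18 was called higher (Npas2) and 1 lower (Dbp), and DESeq2 called 5 and 3. With COPD replicate 5 left out 5 were higher and 4 lower; with any other 1 library left out 0 were higher, and 0 were lower without COPD replicate 2. A clock score (mean log2 CPM of the activator genes Clock, Arntl and Npas2, less the mean for Nr1d1, Nr1d2, Per1, Per2 and Dbp) was -5.15 to -4.14 in controls and -3.09 to -2.16 in COPD, COPD replicate 5 included. The score contains both genes that edgeR called on this contrast, so its separation of the groups is a description and no test. Per1, on the subtracted side, went the other way (0.70 ± 0.17), and DESeq2 called it higher. Immediate early genes, which also respond to handling and tissue injury, had 0 calls among 22 tested of 23 by edgeR (with an unadjusted p under 0.05, 12 were higher and 1 lower), and DESeq2 called 8 higher. Without COPD replicate 5, edgeR called 8 higher and 1 lower. Of the 22 genes tested, 21 had a positive log2 fold change (median 0.81). Without COPD replicate 1, 16 of 22 did (median 0.54), and in the 7 libraries with Y-linked transcripts also 16 of 22 (median 0.63). On log2(TPM + 1) it was 16 of 20 tested (median 0.55). The list had a centred mean of -0.78 to -0.04 log2 CPM in controls, 0.19 to 1.22 in COPD replicates 1 to 4 and -0.14 in COPD replicate 5, inside the control range. Glucocorticoid-responsive genes had 0 calls among 19 by edgeR (12 higher at an unadjusted p under 0.05), 8 higher by DESeq2 and 7 higher by edgeR without COPD replicate 5. All 19 had a positive log2 fold change (median 0.83), and 17 did with library size as the only scaling and 16 on log2(TPM + 1) (median 0.61). By edgeR on all 10 libraries, the medians of the immediate early and glucocorticoid lists were both above the 0.71 of the CREB targets. That order changed in some fits. Without COPD replicate 1 the immediate early median was 0.54 and that of the CREB targets 0.56. On log2(TPM + 1) they were 0.55 and 0.56. Without COPD replicate 4 the glucocorticoid median was 0.767 and that of the CREB targets 0.770. The centred mean of the glucocorticoid list was -0.56 to -0.38 in controls, 0.45 to 0.84 in COPD replicates 1 to 4 and -0.22 in COPD replicate 5, without overlap. Taken singly, 0 of its genes were without overlap. The mean was read on the TMM scale alone, where control replicate 2 had a factor of 1.07 and COPD replicate 5 one of 0.952. Its separation of the groups is therefore a description and no test. Markers of 11 cell types did not separate the groups by their summed level in any case. Macrophage markers, of which 8 of 9 had a log2 fold change below 0, summed to 75.1 to 143 CPM in controls and 34.4 to 107.5 CPM in COPD, and tendon markers to 36.6 to 90.7 and 69.1 to 188 CPM; none of either list was at 0 in all libraries. In whole muscle, fewer cells of a type and less RNA per cell cannot be told apart.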

How the data were processed

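Messenger RNA was sequenced from 10 gastrocnemius libraries, grouped by their titles. The authors deposited expected counts per gene symbol (30.7% of all values, zeros included, lay more than 0.001 from a whole number) and TPM for the same genes; RSEM 1.2.12, HISAT2 2.0.4, DESeq2 1.4.5, Bowtie2 2.2.5 and build mm9 appear in the submitters' processing notes, without their roles. Expected counts were rounded, filtered by filterByExpr, scaled by TMM and tested with edgeR 4.0.16 (glmQLFit, glmQLFTest; Benjamini-Hochberg, threshold 0.05) in R 4.3.3. The SE of a log2 fold change was derived from it and the F statistic (the absolute value over the root of F). The procedure was tested on simulated data. DESeq2 1.42.0, limma 3.58.1 on log2(TPM + 1) and log2(TPM + 0.1), other scalings and filters, a replicate block and the omission of single libraries were alternatives. Figures used matplotlib 3.10.9. Libraries of a group differed by more than sampling noise allows (16.9 to 89.6 in chi-square over its degrees of freedom).

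The members and the 9 pathway lists were chosen with earlier results of these data known. Named genes are the members, the called genes of each list or else up to 4 with the smallest p, and the 3 nearest genes of each member whose log2 CPM (prior count 2) had an SD of at least 0.75; Crtc1, Creb1, Hdac7 and Hdac9, and genes named as called in an alternative, were added after their values were seen. The immediate early, glucocorticoid and clock lists are given by their calls and library means. RefSeq windows carry coordinates of GRCm38.p6, a build other than that of the counts.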

Additional observations from a re-analysis of the deposited data

How the results depend on the processing

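Of 180 values of the members under 20 alternatives, 168 moved by less than the SD between replicates. Those that moved further were Crtc2 with library size alone (-0.038), and on log2(TPM + 1) Crtc2 (-0.10), Crtc3 (-0.24), Crem (0.31) and Nr4a2 (0.94), each with and without the filter; on log2(TPM + 0.1) Crtc2 was at -0.10, Crtc3 at -0.28 and Crem at 0.35. The median of all genes was -0.17 with library size alone and -0.18 on log2(TPM + 1). The count of all genes higher and lower in COPD was 7 and 1; it was 2 and 4 with library size alone, 7 and 3 with upper-quartile factors, 256 and 149 by DESeq2 on the same genes, 263 and 151 by DESeq2 without the filter, and 14 and 3 by edgeR without it. It was 11 and 86 on log2(TPM + 1), 8 and 55 on log2(TPM + 0.1), 0 and 2 on log2(TPM + 1) unfiltered (3675 at an unadjusted p under 0.05), and 336 and 152 over libraries with Y-linked transcripts. Leaving out 1 library gave 0 to 263 higher and 0 to 147 lower, the highest without COPD replicate 5 and 0 of each without COPD replicate 2. Among genes of the pathway lists 1 was higher and 1 lower (Npas2 and Dbp); it was 0 higher with library size alone, 28 and 4 by DESeq2 with or without the filter, 2 higher by edgeR without the filter, 4 lower on log2(TPM + 1), 3 lower on log2(TPM + 0.1), 0 higher on log2(TPM + 1) unfiltered, and 15 and 3 over libraries with Y-linked transcripts. Leaving out 1 library gave 0 to 23 higher and 0 to 5 lower. Without the filter, edgeR called Sik1 among the members. The cause of these changes was not tested.

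Same-numbered libraries did not deviate together (correlations of deviations -0.14 to 0.04). The labels do not say whether they were paired, and so few libraries cannot exclude it. With the replicate block 6 genes were higher and 1 lower, 0 pathway genes were higher, and Sik1 had a log2 fold change of 1.69, Crem 0.56 and Nr4a2 1.75. Library totals make 1 CPM, before TMM, stand for 14.1 to 17.3 counts, which limits Nr4a2 most.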
